A study of Mus musculus with 31 samples.

Results

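A set of 331 ATAC-seq peaks (282 regions after merging peaks that overlap) was accessible early after an IL-2 agonist and still above the control level at 72 h, out of 104979 peaks (73159 regions) measured in mouse regulatory T cells (Tregs). They were chosen by measured values. The 15 peaks that each held over 0.2% of all counts were dropped, counts were scaled to counts per M (CPM; M, mega), and D was the log2 ratio of the group mean CPM to the mean CPM of the PBS group of the same time, with 0.5 CPM added to both. A peak was kept when D was at least 0.8, with every treated library above every PBS library, both for IL2 at 0.75 h and for the IL-2 fusion protein (FP) at 16 h, and when D for FP was at least 0.5 at 72 h. The 2 early conditions together left 730 peaks, of which 331 met the 72 h threshold (the sustained peaks) and 399 did not. The deposited annotation assigned the sustained peaks to 265 gene names, and 59 of them overlapped another sustained peak.

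The samples were Tregs sorted from the spleens of C57BL/6 mice that carry an RFP-FoxP3 reporter, so the sort rests on expression of the reporter. Mice had been injected with 5 µg of mIL-2 (mouse IL-2, called IL2 here), with 20 µg of mIL-2/CD25 (called FP, which joins mouse IL-2 to its own receptor chain CD25), or with 100 µL of PBS. IL2, FP and PBS groups had 3 libraries each at 0.75 h and at 16 h, FP and PBS had 3 each at 72 h, and 4 FP and 3 PBS libraries were taken at 168 h, which made 31 libraries in 10 groups. IL2 was not sampled after 16 h in these libraries, and the sources used here do not give mouse age. The labels' protocol states 0.75 h throughout, so the later times were taken from sample titles, and it mentions 2 technical replicates for a biological sample, which the deposited table does not separate. Different mice were sampled at each time, each time had a date of its own in the labels' sample ids, and the labels do not say that libraries of a group came from separate mice, so an error or a p measures the spread between these libraries.

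IL-2 binds a receptor of CD25 (Il2ra), CD122 (Il2rb) and the common gamma chain (Il2rg), whose kinases JAK1 and JAK3 phosphorylate the transcription factor STAT5. STAT5 dimers enter the nucleus and bind a palindrome called the GAS site, whose letters are TTCNNNGAA. Tregs express CD25 constitutively and depend on IL-2 for survival and for FOXP3 expression, and IL-2 also induces its own inhibitors, among them the SOCS family protein CISH.

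The sequences of 6 sustained peaks are shown because the account turns on the GAS site and on these genes. Each is a 150-base window of the GRCm38 reference, plus strand, 5′ to 3′, around a GAS site near the peak centre, with every GAS site in capitals. The first 3 belong to genes of IL-2 signalling: Bcl2, an inhibitor of apoptosis (chr1:106607135-106607284, intron), Cdk6, a kinase of cell cycle entry (chr5:3477989-3478138, intron), and Cish (chr9:107298170-107298319, promoter). The other 3 were among the peaks whose lowest D over the 3 conditions was highest: Tspan14, a tetraspanin (chr14:40905173-40905322), Rps21, a ribosomal protein (chr2:180249098-180249247), and Tceanc2, whose D at 72 h was the highest of all sustained peaks (chr4:107171937-107172086, intron).
Bcl2: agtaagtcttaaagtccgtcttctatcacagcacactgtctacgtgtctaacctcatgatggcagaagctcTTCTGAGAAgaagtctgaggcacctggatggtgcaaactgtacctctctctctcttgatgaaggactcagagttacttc
Cdk6: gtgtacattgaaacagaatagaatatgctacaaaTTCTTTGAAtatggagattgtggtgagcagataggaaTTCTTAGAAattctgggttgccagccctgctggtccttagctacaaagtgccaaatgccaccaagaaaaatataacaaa
Cish: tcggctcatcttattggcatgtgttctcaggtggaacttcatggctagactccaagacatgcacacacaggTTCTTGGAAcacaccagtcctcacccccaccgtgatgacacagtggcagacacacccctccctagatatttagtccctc
Tspan14: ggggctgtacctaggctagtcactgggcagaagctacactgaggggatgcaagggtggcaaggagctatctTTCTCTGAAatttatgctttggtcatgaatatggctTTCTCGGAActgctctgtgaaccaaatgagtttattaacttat
Rps21: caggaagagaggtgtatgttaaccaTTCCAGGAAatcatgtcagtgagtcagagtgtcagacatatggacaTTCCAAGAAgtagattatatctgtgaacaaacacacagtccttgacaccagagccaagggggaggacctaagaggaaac
Tceanc2: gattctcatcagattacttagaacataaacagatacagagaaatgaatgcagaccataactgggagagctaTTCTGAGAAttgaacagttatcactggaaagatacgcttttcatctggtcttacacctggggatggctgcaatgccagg

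A GAS site lay in 279 of the 331 sustained peaks (84.3%, exact 95% Clopper-Pearson interval 79.9% to 88.0%). The share was 81.5% of the 399 early-opened peaks below the 72 h threshold and 13.3% of all 104964 peaks kept. Sequence was no part of the rule, but the rule selects on a response to IL-2, so these shares describe the selection. The interval treats the peaks as independent, but overlapping peaks share their sites. With 1 peak for each merged region the share of the sustained peaks was 87.6%. The sustained peaks were wider, with a median of 604 bp against 555 bp below the threshold and 366 bp over all peaks. In the central 200 bases of each peak, a window of equal length for peaks at least that wide, the shares were 62.5%, 57.1% and 7.08% in the same order. At least 2 GAS sites were found in 31.1% of the sustained peaks, in 30.3% of those below the threshold and in 1.74% of all peaks.

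The sites lay near the peak centres. The GAS site closest to the centre was at a median distance of 55 bp in the 279 sustained peaks with one, against 59.5 bp below the threshold and 103.5 bp over all peaks with one. It was within 100 bp of the centre in 75.6%, 70.5% and 48.9% of them. Within 200 bp of the centre, counted over peaks of 400 bp or wider, sites per 100 sustained peaks ranged from 5.47 to 22.7 between bins of 50 bp, the highest bin being the one just after the centre.

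**Figure D1:**
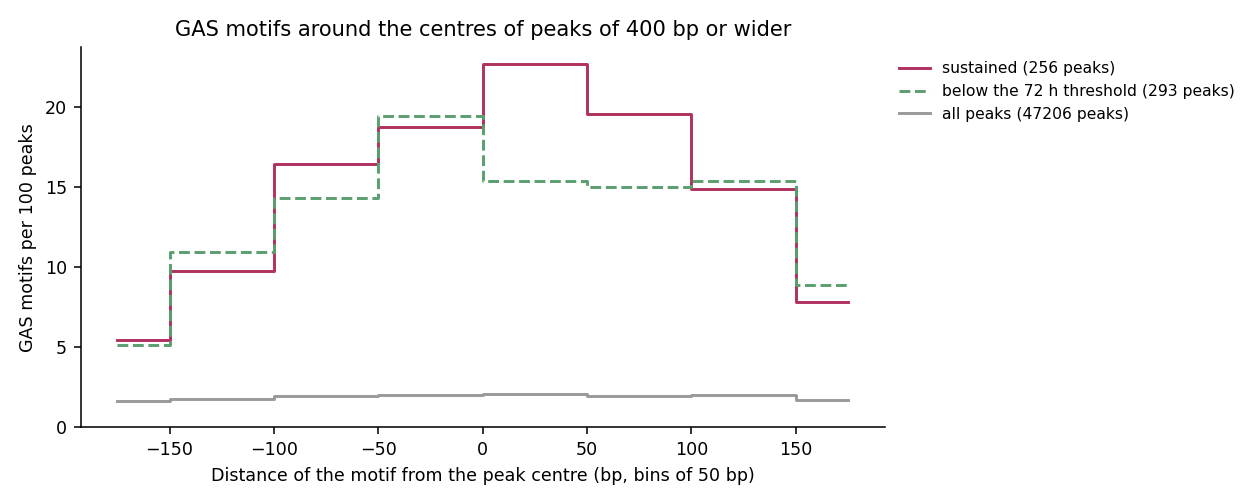
GAS sites (TTCNNNGAA) per 100 peaks (y axis) by distance from the peak centre (x axis, bp, bins of 50 bp), in the 3 sets of peaks at least 400 bp wide. Both early-opened sets stand far above all peaks within the 200 bp on each side that are drawn, and the sustained set has 22.7 sites per 100 peaks in the bin just after the centre.

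The 413 GAS sites of the sustained peaks, counted peak by peak, used some spacer letters more than others. A site shared by overlapping peaks counts in each of them, here and over all peaks, so 413 is not a count of distinct sites. Stacks of overlapping peaks thus weigh more in these shares, and shares over merged regions were not computed for these words. The word TTCTCAGAA, or its reverse complement TTCTGAGAA that the Bcl2 and Tceanc2 windows show, made up 17.7% of them, against 11.0% of the 16081 sites of all peaks. TTCTAAGAA and its reverse complement made up 16.2%, against 6.87% over all peaks, TTCCAGGAA and its reverse complement 14.5% against 10.0%, and TTCCAAGAA and its reverse complement, which the Cish and Rps21 windows show, 11.9% against 5.34%. The letters TTCTNGGAA, a part of the GAS pattern searched on both strands, occurred in 35.3% of the sustained peaks, in 28.1% of those below the threshold and in 3.03% of all peaks.

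Of the other motifs searched, several were also more frequent in early-opened peaks than over all peaks, counted over whole peaks, which differ in width. The AP-1 letters TGANTCA were in 19.9% of the sustained peaks, in 26.3% of those below the threshold and in 13.2% of all peaks. RUNX letters TGTGGTT were in 27.5%, 27.1% and 12.3%, and TCF/LEF letters CTTTGAT in 17.2%, 13.3% and 6.71% of the same sets, both strands searched. Forkhead letters TGTTTAC were in 7.55%, 11.8% and 5.87%, and CRE letters TGACGTC in 4.23%, 1.00% and 2.65%. The GAS share of the sustained peaks was close to that of the peaks below the threshold. The whole-peak AP-1 and forkhead shares were lower and the CRE share higher (14 against 4 peaks), without a test. Overlapping peaks count separately in these shares, and shares with 1 peak for each merged region were not computed for these motifs. In the central 200 bases the AP-1 shares were 8.16%, 13.5% and 7.16% in the same order. The forkhead shares there were 3.32%, 3.26% and 2.89%, and the CRE shares 2.11%, 0.501% and 1.27%. The lower forkhead share was thus not seen in that window. The KLF/SP letters GGGCGGG, common in promoters, were in 4.23% of the sustained peaks and in 16.4% of all peaks. The deposited annotation labelled 28 of the 331 as promoter (8.46%, against 28.0% of all peaks), 172 as intron, 84 as intergenic, 35 as 3′ end and 12 as exon. By GENCODE M21, the centre of 210 lay in an intron, of 94 between genes, of 18 in an exon of a noncoding transcript, of 6 in a UTR and of 3 in coding sequence. In 8.76% the start of a protein-coding transcript lay in the peak or within 1 kb of its nearer edge. This held for 6.02% below the threshold and 26.0% of all peaks, and median GC content was 44.6%, 43.1% and 48.8% in that order.

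In control mice the median CPM of the sustained peaks was close to that of all peaks. The median over the 331 peaks of the mean CPM was 12.9 after IL2, 8.70 after FP and 4.02 after PBS at 0.75 h, and 3.98, 11.3 and 4.02 at 16 h. At 72 h it was 7.76 after FP and 3.87 after PBS, and at 168 h 3.94 after FP and 3.90 after PBS. In the PBS groups at 0.75, 16, 72 and 168 h, the median over all peaks was 3.56, 3.76, 3.74 and 4.15 CPM. In the early-opened peaks below the threshold it was 4.86, 4.53, 4.78 and 5.24 CPM. CPM counts the whole peak, and the sustained peaks were wider than all peaks, so these values do not compare accessibility per base. In sorted bulk cells, a change in accessibility per cell and a change in the mixture of cells cannot be told apart.

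The 3 comparisons of the rule fixed part of this and are described without a test. Median D was 1.57 for IL2 at 0.75 h (the condition called 2.87% of all peaks), 1.33 for FP at 16 h (1.79% of all peaks) and 0.77 for FP at 72 h (6.71% of all peaks at D of at least 0.5). The early-opened peaks below the threshold had medians of 1.37, 1.11 and 0.24, and all peaks -0.03, -0.08 and -0.02. The 72 h condition asked for no separation of libraries, yet 259 of the 331 had every FP library above every PBS library at 72 h (6.71% of all peaks did), from which nothing is read, since D at 72 h chose them. In 297 of the 331, D for FP was lower at 72 h than at 16 h.

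**Figure D2:**
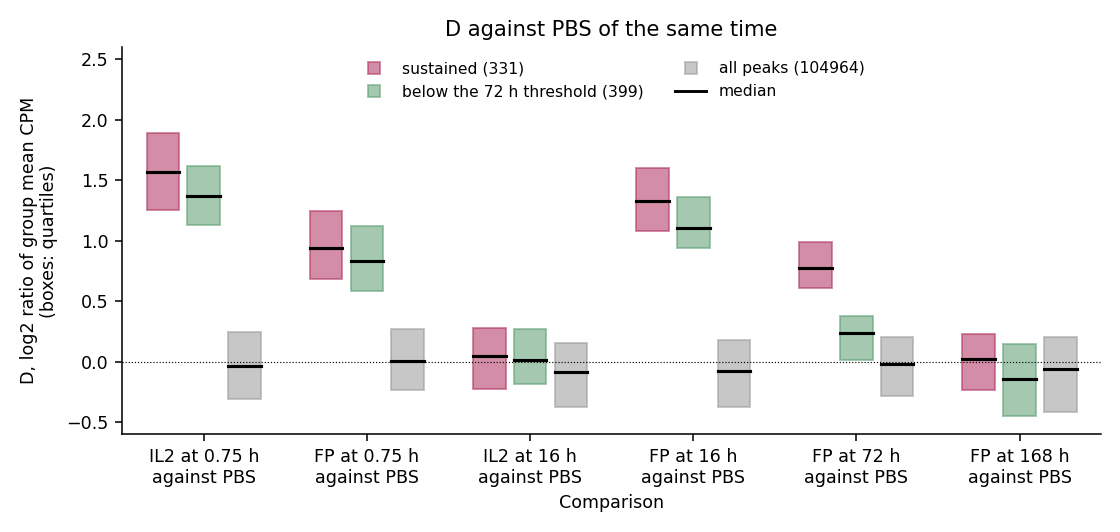
D, the log2 ratio of group mean CPM to PBS of the same time (y axis; boxes are quartiles over peaks, lines medians), in 6 comparisons for the 331 sustained peaks, the 399 below the 72 h threshold and all 104964 peaks. The rule used IL2 at 0.75 h, FP at 16 h and FP at 72 h; the sustained median is 0.94 for FP at 0.75 h, 0.05 for IL2 at 16 h and 0.02 for FP at 168 h.

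At 0.75 h, D was smaller for FP than for IL2 at most sustained peaks. The sustained peaks had a median D of 0.94 for FP at that time (quartiles 0.68 and 1.25), against 0.83 for those below the threshold and 0.01 over all peaks. D was at least 0.8 with all FP above all PBS libraries in 166 of the 331, a condition met by 1.85% of all peaks. All FP libraries were above all PBS libraries in 192 (4.5% of all peaks) and below them in 0 (3.59% of all peaks), and D was at least 0.5 in 282 (11.7% of all peaks). In 321 of the 331, D was lower for FP than for IL2 at 0.75 h, the comparison that chose the peaks. The FP comparison shares its PBS libraries with the rule, so these counts carry no test. Doses differed, at 20 µg of FP and 5 µg of IL2, and the proteins are not the same size. By library, the median log2 ratio of the 331 to mean PBS was 1.09, 1.20 and 0.71 in FP libraries, so replicate 3 was the lowest, and 1.68, 1.56 and 1.62 in IL2 libraries.

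At 16 h after IL2, the median of the same peaks was close to the PBS level. Median D was 0.05 (quartiles -0.23 and 0.28), against 0.02 below the threshold and -0.08 over all peaks, and the 3 IL2 libraries had medians of 0.13, 0.07 and -0.01. All IL2 libraries were above all PBS libraries in 20 of the 331 (2.69% of all peaks) and below them in 8 (6.13% of all peaks). At 16 h, D was lower for IL2 than for FP in 330 of the 331. Both comparisons share the PBS libraries at 16 h, and FP at 16 h chose the peaks, so the difference is a description. D was at least 0.5 for IL2 at 16 h in 33 (9.97%, against 5.32% of all peaks) and at most -0.5 in 34 (17.7% of all peaks). Beside all peaks, the sustained peaks thus leaned upward, without a test, since the rule used the same PBS libraries.

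**Figure D3:**
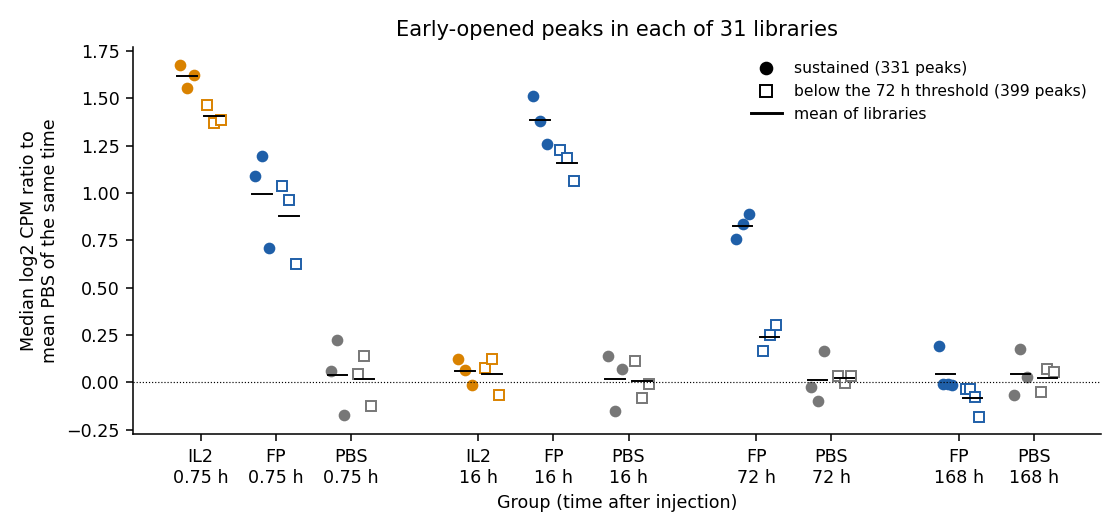
Median over peaks of the log2 CPM ratio to the mean of PBS at the same time (y axis) for each of the 31 libraries (points), by group (x axis), for sustained peaks (filled) and early-opened peaks below the 72 h threshold (open); lines are means over libraries. IL2 libraries lie at 1.56 to 1.68 at 0.75 h and at -0.01 to 0.13 at 16 h, while FP libraries lie at 1.26 to 1.52 at 16 h and at 0.76 to 0.89 at 72 h.

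Among the 331, 4 had D of at least 0.8 with separated libraries for IL2 at 16 h (0.436% of all peaks met this), and they were singled out after their values were seen. They were assigned to Ptpn2, a tyrosine phosphatase that acts on JAK and STAT proteins, to Ube2d3, a ubiquitin-conjugating enzyme, to Ppm1l, a protein phosphatase, and to Gm18726. The Ptpn2 peak (chr18:67699442-67700004, intron) had 4.42, 2.84 and 4.77 CPM after IL2 and 11.1, 10.8 and 9.60 CPM after FP at 16 h, against 1.92, 0.953 and 2.32 CPM after PBS. The Gm18726 peak (chr12:32735233-32735762, between genes) had 4.93, 2.26 and 2.98 CPM after IL2 and 13.2, 7.24 and 7.72 CPM after FP, against 1.21, 0.715 and 0.687 CPM after PBS. In both, IL2 libraries stood between the PBS and the FP libraries at 16 h. Of the stack of 9 overlapping peaks at Man1a, a mannosidase of the Golgi, all 9 had separated libraries after IL2 at 16 h, so they make up 9 of the 20 counted above but 1 region.

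FP at 168 h against PBS was the comparison with no library in common with the rule. No sustained peak passed an adjusted p of 0.05 among the 329 of 331 that could be tested (edgeR quasi-likelihood test, Benjamini-Hochberg over 102817 tested peaks; FP n = 4, PBS n = 3), and 0% of all tested peaks did. The lowest adjusted p of a sustained peak was 0.905. An unadjusted p under 0.05 was found for 14 of the 329 (4.26%), against 4.51% of all tested peaks. DESeq2 called 0 sustained peaks and 11 of all peaks, with an unadjusted p under 0.05 for 18 sustained peaks (5.44%), against 5.70% of all peaks. The biological coefficient of variation at 168 h was 48.1%, and an adjusted p above the threshold does not show that accessibility was equal.

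Median D of the sustained peaks at 168 h was 0.02 (quartiles -0.23 and 0.23), against -0.14 below the threshold and -0.06 over all peaks. All FP libraries were above all PBS libraries in 20 (2.88% of all peaks), 7 of these with D of at least 0.8 (0.735% of all peaks), and below them in 11 (3.24% of all peaks), while D was at least 0.5 in 38 (7.22% of all peaks) and at most -0.5 in 31 (20.9% of all peaks). Of the 399 below the threshold, 3 had all FP libraries above and 25 all below. FP replicate 2 and PBS replicate 1 stood apart from the other libraries (mean correlation of log2 CPM with them 0.822 and 0.785) and were shallow, with 12.3 M and 7.39 M counts. Without both, median D of the sustained peaks at 168 h was -0.08 and the edgeR test again called 0. Its unadjusted p was then under 0.05 for 4.85% of the sustained peaks and 10.0% of all tested peaks. The shares were 5.49% and 15.1% without FP replicate 2 alone, and 3.63% and 2.57% without PBS replicate 1 alone. Without PBS replicate 4 alone, a library of 33.7 M counts with a mean correlation of 0.905, they were 6.75% and 11.8%. The near-equal shares with every library kept thus depended on which libraries were kept, and not only on the shallow ones.

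**Figure D4:**
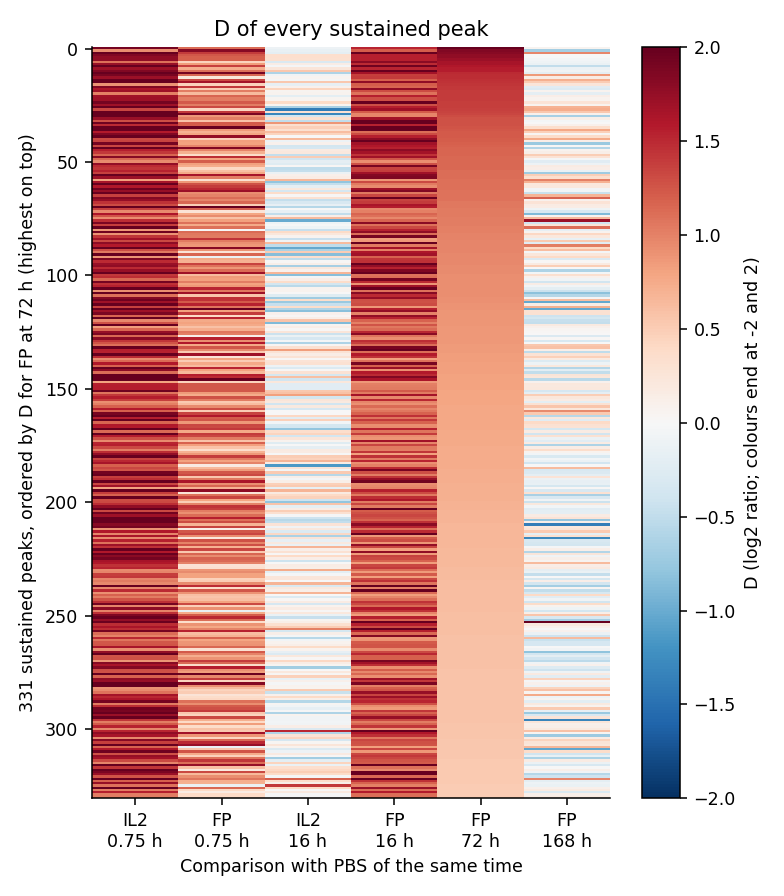
D (colour, log2 ratio to PBS of the same time, colours ending at -2 and 2) of each of the 331 sustained peaks (rows, ordered by D for FP at 72 h) in 6 comparisons (columns). The columns for IL2 at 0.75 h, FP at 16 h and FP at 72 h are positive by the rule, FP at 0.75 h is positive in 327 of 331, and IL2 at 16 h and FP at 168 h hold both signs.

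Genes of IL-2 signalling, survival and cell cycle were taken from a list of 36 genes with 402 peaks. Of these peaks, 13 (3.23%, against 0.695% of all peaks) met the 2 early conditions and 10 (2.49%, against 0.315% of all peaks) were sustained, at 6 genes. Results of these data were known when the list was made, so nothing is read from these shares. No peak of the receptor genes Il2ra, Il2rb and Il2rg, of Jak1, Jak3, Stat5a and Stat5b, of Socs1, Socs2 and Socs3, or of Myc was among them. Over the 402 peaks, median D was 0.05 for IL2 at 0.75 h, -0.01 for FP at 16 h, 0.22 for FP at 72 h and 0.13 for FP at 168 h, so the sustained peaks were a small part of these loci.

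Bcl2, the inhibitor of apoptosis, held 4 separate sustained regions, the most of any gene. All lay in its intron by GENCODE, between 106599117 and 106617349 on chromosome 1 and 95830 to 113607 bp from the nearest protein-coding start, which is that of Bcl2. The region at chr1:106606895-106607640, which the deposited annotation calls promoter, had 54.3, 48.9 and 52.9 CPM after IL2 and 36.1, 40.4 and 38.9 CPM after FP at 0.75 h, against 9.47, 14.7 and 11.8 CPM after PBS. At 16 h it had 10.1, 8.83 and 8.64 CPM after IL2 and 33.8, 37.2 and 24.1 CPM after FP, against 10.2, 6.55 and 8.85 CPM after PBS. At 72 h it had 12.1, 17.6 and 21.5 CPM after FP against 8.08, 4.00 and 10.8 CPM after PBS. The FP and PBS libraries were thus separated at each of these times, while the IL2 libraries overlapped PBS at 16 h.

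The neighbouring Bcl2 region at chr1:106612369-106613381 was the more accessible. Its mean was 95.1 ± 7.07 CPM after IL2 and 73.5 ± 12.8 CPM after FP at 0.75 h, against 43.2 ± 5.85 CPM after PBS (SD, n = 3 each). At 72 h it was 52.1 ± 7.60 CPM after FP against 30.5 ± 7.42 CPM after PBS, a D of 0.76. At 168 h, D was 0.16 there, 0.49 at the region described before, 0.61 at chr1:106616970-106617349 and -0.73 at chr1:106599117-106599572. Under edgeR these 4 had log2 fold changes of 0.20 ± 0.19, 0.57 ± 0.32, 0.70 ± 0.36 and -0.88 ± 0.57 (SE), with adjusted p of 0.905 to 0.911, so none passed the test.

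Cish, which encodes an inhibitor of cytokine receptor signalling, held 2 sustained regions. At its promoter (chr9:107298139-107298420), FP libraries had 6.91, 5.54 and 6.08 CPM at 16 h against 2.42, 2.26 and 1.72 CPM after PBS. At 72 h they had 5.64, 5.74 and 7.92 CPM, against 3.39, 1.46 and 3.46 CPM after PBS. At 168 h they had 2.48, 1.78, 2.66 and 2.70 CPM, against 1.25, 1.71 and 0.987 CPM after PBS. The groups did not overlap at any of these times, and at 168 h the log2 fold change was 0.94 ± 0.49 (SE) with an adjusted p of 0.905 (edgeR quasi-likelihood test). The other region (chr9:107307622-107308168), 8467 bp from the start of Cish, had a D of 1.05, 0.28, 0.50, 1.61, 0.97 and -0.03 for IL2 at 0.75 h, FP at 0.75 h, IL2 at 16 h, FP at 16 h, FP at 72 h and FP at 168 h.

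The Cdk6 region (chr5:3477644-3478642, intron, 3 GAS sites) had 50.9, 52.7 and 69.0 CPM after IL2 and 45.6, 49.0 and 31.3 CPM after FP at 0.75 h, against 14.5, 12.2 and 16.8 CPM after PBS. At 16 h it had 15.0, 16.0 and 14.0 CPM after IL2 and 40.4, 51.8 and 33.9 CPM after FP, against 12.2, 13.8 and 12.1 CPM after PBS. At 72 h the FP libraries had 14.2, 20.7 and 22.1 CPM against 6.28, 7.62 and 12.0 CPM after PBS. The FP values were above PBS in every library at each of these times, and the distance was widest at 16 h. At 168 h, FP and PBS overlapped and D was -0.06.

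Pim1, a serine/threonine kinase of cytokine-driven survival, had 1 sustained region (chr17:29500768-29501350, between genes) with low values. It had 3.12, 5.30 and 8.67 CPM after FP at 72 h, against 1.47, 1.54 and 5.59 CPM after PBS, so these libraries overlapped although D was 0.88. The phosphatase genes Ptpn1 and Ptpn2 each had 1. The Ptpn1 region (chr2:167909933-167910693, between genes, no GAS site) had 13.1, 16.0 and 9.58 CPM after IL2 and 5.45, 9.32 and 5.39 CPM after FP at 0.75 h, against 1.70, 1.69 and 0.557 CPM after PBS. At 168 h it had 2.34, 1.93, 1.48 and 1.78 CPM after FP against 2.99, 7.22 and 2.79 CPM after PBS, so that all FP libraries lay below all PBS libraries (log2 fold change -1.15 ± 0.47 SE, adjusted p = 0.905, edgeR).

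**Figure D5:**
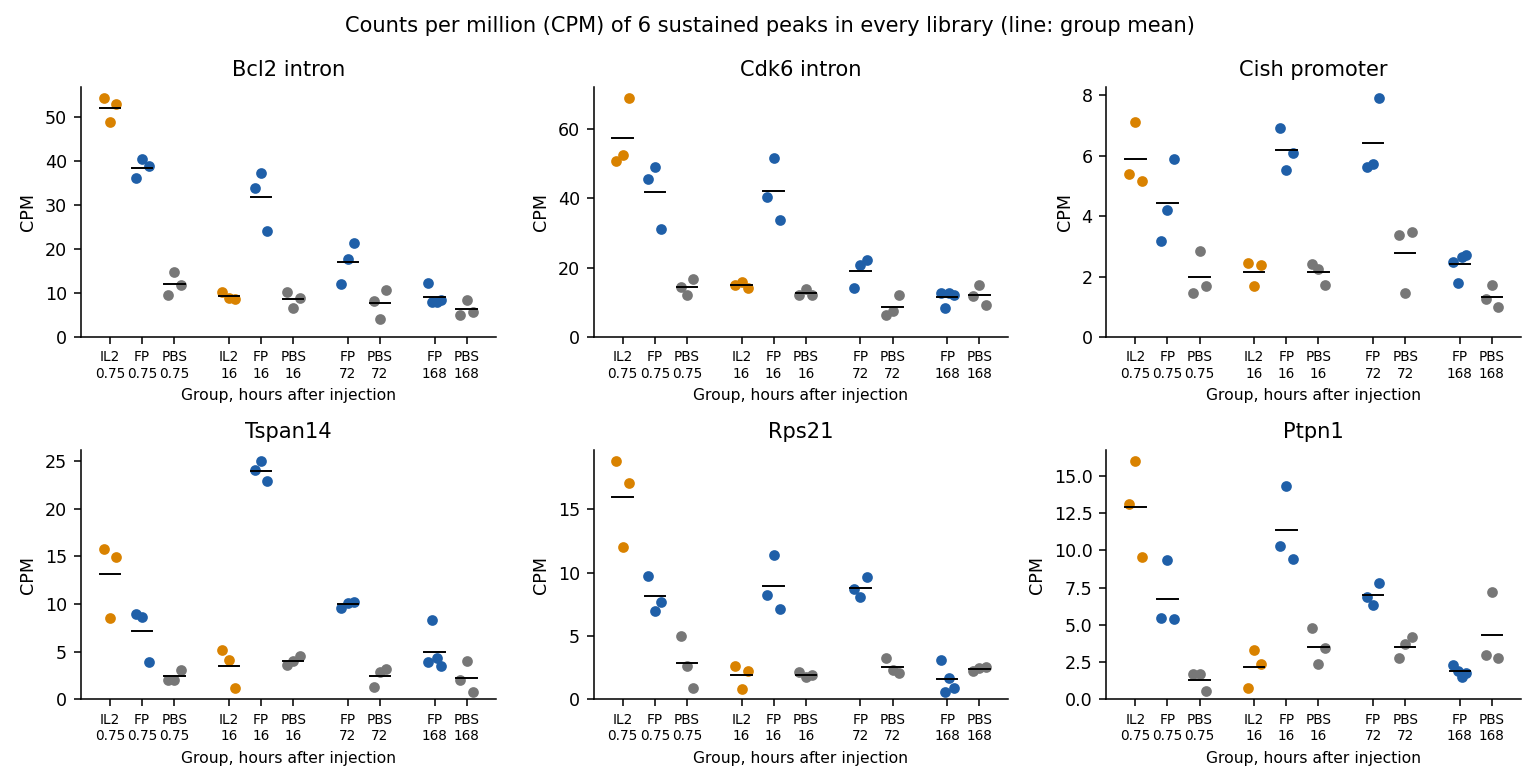
CPM (y axis) of 6 sustained peaks in every library (points) by group and hours after injection (x axis), with group means as lines. At Bcl2 and Cdk6 the IL2 libraries are highest at 0.75 h, and at Tspan14 the FP libraries are highest at 16 h, with 22.9 to 25.0 CPM.

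Of a list of 14 Treg genes with 208 peaks, 2 genes had a sustained peak. Nt5e encodes CD73, the ectoenzyme that makes adenosine, and its intronic region (chr9:88337661-88337909, no GAS site) had 6.62, 3.84 and 7.36 CPM after IL2 and 5.31, 2.98 and 2.14 CPM after FP at 0.75 h, against 0.457, 0.267 and 0.319 CPM after PBS. At 72 h it had 3.28, 1.63 and 1.41 CPM after FP against 0.874, 0.231 and 0.674 CPM after PBS. Nrp1 encodes neuropilin-1, a surface receptor of thymus-derived Tregs, and its region (chr8:128563090-128563468) lay between genes, 122186 bp from the nearest protein-coding start, that of Itgb1. Its D was 1.53, 0.60, -0.48, 1.38, 1.12 and -0.13 in the order used for Cish. No peak of Foxp3, Il2ra or Ctla4 was sustained.

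The Treg label was checked on the same lists. The Foxp3 promoter peak had 18.1 to 42.2 CPM over the 31 libraries, while that of Cd79a, a B cell gene, had 0.203 to 5.07 CPM, Klrb1c, an NK cell gene, 0 to 2.48 CPM, and Ms4a1 and Ncr1 had no peak. None of the 17 peaks of CD8 T cell markers, 13 of myeloid, 16 of NK cell, 23 of erythroid and 11 of B cell markers was sustained. With 0.315% of all peaks sustained, a count of 0 among so few says nothing on the label, and 1 erythroid peak, at Hbb-bt, met the 2 early conditions. The summed NK marker peaks had 195 to 235 CPM after FP and 130 to 204 CPM after PBS at 16 h, and 201 to 220 CPM after FP against 158 to 196 CPM after PBS at 72 h. The summed myeloid marker peaks had 39.6 to 58.3 CPM after FP and 34.7 to 41.5 CPM after PBS at 16 h. The summed erythroid marker peaks had 127 to 212 CPM after FP against 97.8 to 133 CPM after PBS at 0.75 h, and those of CD8 T cells 64.0 to 125 CPM after FP against 112 to 136 CPM after PBS at 72 h. Their part in the values of the sustained peaks was not tested.

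Ranked by the lowest D over the 3 conditions, the first 12, 1 for each gene, were at Tspan14, Rps21, Wwp1, Sntb1, Abhd18, Tceanc2, Nek9, 2210408F21Rik, Nfatc2, Wtap, Suco and Kmt2c. The Tspan14 region (chr14:40904865-40905582, 4 GAS sites, between genes by GENCODE) had 24.1, 25.0 and 22.9 CPM after FP and 5.19, 4.15 and 1.15 CPM after IL2 at 16 h, against 3.62, 4.05 and 4.55 CPM after PBS. At 72 h it had 9.56, 10.2 and 10.2 CPM after FP against 1.31, 2.85 and 3.19 CPM after PBS. The FP libraries were far above the rest at 16 h and still separated at 72 h, where D was 1.83. At 168 h, FP libraries had 3.91, 8.32, 4.34 and 3.47 CPM against 1.99, 4.07 and 0.815 CPM after PBS, which overlapped.

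The Rps21 region (chr2:180248959-180249401) lay 7976 bp from the start of Rps21. It had 8.26, 11.4 and 7.15 CPM after FP and 2.63, 0.841 and 2.27 CPM after IL2 at 16 h, against 2.20, 1.79 and 1.89 CPM after PBS, and 8.70, 8.10 and 9.65 CPM after FP at 72 h against 3.28, 2.31 and 2.11 CPM after PBS. Wwp1 encodes a HECT ubiquitin ligase, and its intronic region (chr4:19686013-19686543, no GAS site) had 24.7, 29.2 and 24.1 CPM after FP and 5.44, 4.94 and 4.02 CPM after IL2 at 16 h, against 3.48, 1.79 and 4.21 CPM after PBS. Its FP libraries at 72 h had 10.0, 9.15 and 9.43 CPM, against 1.42, 4.23 and 2.96 CPM after PBS. At both genes the FP libraries stood clear of PBS at both times.

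Tceanc2 had the highest D of all at 72 h, 2.12, from low counts (chr4:107171855-107172041, intron). It had 2.90, 2.54 and 3.01 CPM after FP at 72 h against 0.109, 0.231 and 0.449 CPM after PBS, and 0.382, 0.297, 0.169 and 0.772 CPM after FP at 168 h against 0.249, 0.788 and 0.0858 CPM after PBS. Nfatc2 encodes a transcription factor of calcium signalling in T cells, and its intronic region had a D of 1.62, 0.50, 0.45, 1.77, 1.41 and -0.27 in the order used for Cish. Kmt2c, a histone H3 lysine methyltransferase, had 1.90, 1.15, -0.08, 1.39, 1.48 and 0.84, and Wtap, a subunit of the RNA adenosine methyltransferase complex, 1.71, 0.22, 0.05, 1.40, 1.48 and 0.16. Nek9, a mitotic kinase, had 2.87, 1.92, -0.62, 1.66, 1.50 and -0.19, Sntb1, a syntrophin, 1.78, 1.19, 0.31, 1.56, 1.71 and -0.05, and Suco 1.67, 1.16, -0.19, 1.55, 1.40 and 0.14. All of these had a D under 1 at 168 h whatever their value at 72 h. The highest D for FP at 16 h, 3.18, was at Gad2, which encodes a glutamate decarboxylase. Its intronic region (chr2:22679731-22680633) was named after its values were seen, and had 50.8, 35.7 and 54.6 CPM after FP and 7.04, 6.83 and 6.89 CPM after IL2 at 16 h, against 3.98, 6.43 and 3.87 CPM after PBS. At 72 h it had 11.4, 11.1 and 7.95 CPM after FP against 6.88, 6.24 and 7.73 CPM after PBS, a D of 0.52, so the highest value at 16 h went with one close to the threshold at 72 h.

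The 5 highest D at 168 h were at 2210039B01Rik (2.03), Gm34983 (1.73), Trak2 (1.18), Abcg1, a cholesterol transporter (1.12), and Thada (1.02). The 2210039B01Rik region (chr12:73566448-73567167, 4 GAS sites) had 2.34, 3.57, 1.86 and 1.00 CPM after FP at 168 h against 0, 0 and 0.472 CPM after PBS, and the adjusted p was 0.905 (edgeR). The 5 lowest were at Abi1, a subunit of the actin-regulating WAVE complex (-1.38), Map7 (-1.32), Gm19585 (-1.29), Slc30a7, a zinc transporter (-1.04), and Mov10, an RNA helicase (-1.02). At Gm19585 (chr17:52076546-52077218) the FP libraries had 3.15, 2.38, 4.30 and 4.98 CPM at 168 h, against 9.97, 6.04 and 13.4 CPM after PBS, and 11.3, 9.79 and 10.0 CPM at 72 h, against 7.37, 6.31 and 5.46 CPM after PBS. The FP libraries there were all above PBS at 72 h and all below PBS at 168 h, and the log2 fold change at 168 h was -1.35 ± 0.39 (SE, adjusted p = 0.905, edgeR).

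Besides Bcl2, only Ninj2 held as many as 3 separate regions, and 12 other names, among them Cish, Wwp1, Lncpint, Nampt and Prr5l, held 2. The stacks at Jazf1 (10 peaks), Man1a (9), Plekha5 (9), Abhd18 (6), Acsl1 (5), Gm15518 (5), Sntb1 (5), Aven (4), Arid5b (3) and Sgpp1 (3) were each 1 region called several times. At the 72 h threshold the members just inside were 2 overlapping peaks at Aven (D of 0.5015 and 0.5022) and 1 at Gpat4 (0.5023), and just outside were 2 at Gpat4 (0.4997 and 0.4994) that overlap that one and 1 at Il12rb2 (0.4960). The threshold thus divides overlapping peaks of 1 region, and the sustained set is a range of D rather than a separate class.

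Within the sustained peaks, those with 2 or more GAS sites had the highest medians in the comparisons of the rule, while those with 1 site and with none did not keep 1 order. The 103 peaks with 2 or more sites had a median D of 1.69 for IL2 at 0.75 h, 1.50 for FP at 16 h and 0.84 for FP at 72 h, against 1.55, 1.26 and 0.77 for the 176 with 1 site and 1.54, 1.29 and 0.67 for the 52 with none. For FP at 0.75 h the medians were 1.05, 0.91 and 0.75, for IL2 at 16 h 0.03, 0.03 and 0.12, and for FP at 168 h -0.04, 0.05 and 0.06. Over the 730 early-opened peaks, a GAS site was in 79.4% of the 97 with D under 0 at 72 h. It was in 82.1% of the 112 with D of 0 to 0.25 and in 82.1% of the 190 with 0.25 to 0.5. The share was 78.7% of the 155 with D of 0.5 to 0.75, 90.4% of the 94 with 0.75 to 1 and 87.8% of the 82 with 1 or more. These are descriptions without a test, since peak width and overlap differ along with the number of sites.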

How the data were processed

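ATAC-seq counts were deposited by the authors as 1 table of whole-number read counts for each of 104979 peaks in each library, without normalization; the first per-sample column, listed in the record of deposited units as other, holds counts too. Per the submitters' processing notes, reads were mapped to GRCm38 (mm10) with BWA and peaks called with MACS2 2.1.2. How reads were counted and how 1 common peak set was made is not given in the sources used here. Columns at 16 h name a group but not a sample, and were matched to groups only. Library totals were 7.39 to 59.6 M counts (M, mega), of which the 15 dropped peaks held 25.3% to 51.0%. Chi-square per degree of freedom between replicate libraries was 5.74 to 30.5, so no pair agreed within counting error.

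Members, gene lists and motifs were chosen with earlier results of these data known. CPM used column totals after the drop. FP was compared with PBS at 168 h with edgeR 4.0.16 (TMM, filterByExpr with a minimum count of 10, quasi-likelihood test, Benjamini-Hochberg, threshold 0.05) and with DESeq2 1.42.0 in R 4.3.3; the edgeR step was tested on simulated data. Log2 fold changes of low peaks depend on edgeR's prior count. Members named are the 12 with the highest smallest D, the 5 highest and 5 lowest D at 168 h, those at list genes, those next to the 72 h threshold and genes with 3 or more members. Motifs were read from the GRCm38 sequence on both strands (pysam 0.24.0), and positions set against GENCODE M21, whose protein-coding transcripts gave start sites. The other steps used Python 3.11.15.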

Additional observations from a re-analysis of the deposited data

Results flagged for a closer look

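In the same 4 FP libraries at 168 h, 53 sets of values were searched for 1 library far from the others, and 5 had one. The sets were the median of the sustained peaks and single named peaks. For a single set, chance gives about 1 in 20. These sets share their libraries and some of the peaks overlap, so the count of 5 cannot be set against that rate. The median log2 ratio of the sustained peaks to PBS was 0.195 in FP replicate 1, against -0.01 in each of the other 3. Single peaks with an outlying library were at Cdk6 (8.47 CPM in replicate 2), Bcl2 (12.3 CPM in replicate 1 at chr1:106606895-106607640), Plekha5 (14.7 CPM in replicate 2) and Acsl1 (2.62 CPM in replicate 4).

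Some sustained peaks lay wholly on opposite sides of PBS at different times, and these differences between times were not tested. The rule had set every sustained peak above PBS for IL2 at 0.75 h and for FP at 16 h, so that side was fixed in advance. All libraries were below PBS in 11 of the 331 for FP at 168 h (3.24% of all peaks). For IL2 at 16 h this held in 8 (6.13% of all peaks). Those listed here are among the named peaks, and nothing is read from their number. After FP, all libraries at 168 h were below PBS and all at 16 h above it at Abi1 (D at 168 h of -1.38), Map7 (-1.32), Gm19585 (-1.29), Ptpn1 (-1.02), the Bcl2 region at chr1:106599117-106599572 (-0.733) and Gm15518 (-0.408). After IL2, all libraries at Mov10 were above PBS at 0.75 h and below it at 16 h (D of -0.743).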

How the results depend on the processing

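The number of sustained peaks depended on the rule's settings: 331 became 192 with a pseudocount of 2 CPM and 149 with a 72 h threshold of 0.8, was 259 to 491 under the 6 other settings, and 304 to 384 without each library of the rule in turn. Median D for IL2 at 16 h (0.0503) was 0.126 with TMM-scaled CPM and 0.122 with no peak dropped, where the median of all peaks moved alike (to -0.0015 and 0.0078), and -0.0461 to 0.0972 without single libraries, the lowest without PBS library c2. The GAS share was 62.5% in the central 200 bases. Median D for FP was 0.735 to 1.02 at 0.75 h and 0.0161 to 0.098 at 168 h under the other settings, and 0.874 to 1.06 and -0.0634 to 0.109 without single libraries. The count of sustained peaks called at 168 h was 0 in every alternative run, 0 to 0 without single libraries and 0 with a replicate block; where so few peaks of any kind pass, this says nothing on stability. Correlations of same-numbered deviations at 168 h were -0.23, 0.24 and 0.42. With so few values, and none for differently numbered libraries beside them, they cannot decide whether replicate numbers pair the samples. In the shallowest library, PBS replicate 1 at 168 h, 1 count was worth 0.249 CPM.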
